A study of Rattus norvegicus with 24 samples.

Results

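Matrix metalloproteinases and their inhibitors were described by 9 genes, which were the 9 members named for this gene family and the urokinase that acts with it. They were found by symbol and Entrez identifier, and all 9 were among the 17334 genes quantified in the left kidney of 24 rats. The proteinases were Mmp2 (Entrez 81686), Mmp7 (25335), Mmp9 (81687), Mmp14 (81707) and Mmp15 (291848). The tissue inhibitors of metalloproteinases were Timp1 (116510), Timp2 (29543) and Timp3 (25358), and Plau (25619) encodes the urokinase-type plasminogen activator. All rats were described as male PKD/Mhm (Cy/+) animals, heterozygous for a missense mutation of Anks6 and prone to kidney cysts. They were 8 months old when the kidney was taken. The 6 animals of the control group (Ctrl) were untreated. The treated groups held 6 animals each and were dosed monthly for 6 months. CoCM animals received the medium of human skin-derived ABCB5+ stromal cells grown together with human macrophages. The last 2 groups received the cells themselves, by intraperitoneal (i.p. ABCB5+) or intravenous injection (i.v. ABCB5+). No group of rats without the Cy mutation was included here. The study told Cy/+ rats from non-cystic rats by abdominal palpation. No genotype or cyst measure was given per library, so the disease state of single kidneys was not checked. The control rats were numbered 1 to 24 and the treated rats 26 to 43, and an effect of that order cannot be told apart from treatment.

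Matrix metalloproteinases are zinc-dependent enzymes that cut collagens, basement membrane proteins and many cell surface proteins, and most are made as inactive precursors. Mmp14 sits in the cell membrane and, with Timp2 as an adaptor, activates the Mmp2 precursor, while Plau turns plasminogen into plasmin, a serine proteinase that can activate several of the precursors. The Timp proteins bind the active enzymes and block them. In cystic and fibrotic kidneys this system is studied because cyst growth and scarring both remodel the matrix around tubules.

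The promoters of 6 of the 9 genes were found in the RefSeq table of the rat assembly GRCr8, as windows of 300 bases (250 before and 50 after the annotated start). Mmp2, Mmp9 and Mmp14 had no entry. The windows of 4 genes are shown because these genes differed in pattern. Mmp7 and Timp1 were low in 4 of the kidneys, whereas Timp3 and Plau, in CPM, were within the range of the others in the same kidneys. The sequences run 5′ to 3′ in the direction of the gene. Capitals mark exact matches, on either strand, to an AP-1 element (TGANTCA), a GC box (GGGCGG, which reads CCGCCC on the opposite strand) or a TATA box (TATAAA).
Mmp7, chr8:13132793-13133092, plus strand: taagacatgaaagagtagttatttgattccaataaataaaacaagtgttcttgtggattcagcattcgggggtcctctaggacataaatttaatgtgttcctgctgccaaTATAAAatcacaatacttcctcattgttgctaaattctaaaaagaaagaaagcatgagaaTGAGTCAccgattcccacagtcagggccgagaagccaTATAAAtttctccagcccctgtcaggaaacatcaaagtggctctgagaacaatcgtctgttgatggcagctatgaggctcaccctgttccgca
Timp1, chrX:3771073-3771372, minus strand: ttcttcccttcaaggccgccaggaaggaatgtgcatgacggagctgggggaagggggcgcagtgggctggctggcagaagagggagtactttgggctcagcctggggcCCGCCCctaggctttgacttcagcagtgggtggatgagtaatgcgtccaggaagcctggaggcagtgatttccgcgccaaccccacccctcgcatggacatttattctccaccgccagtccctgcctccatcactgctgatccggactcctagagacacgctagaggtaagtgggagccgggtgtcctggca
Timp3, chr7:19459509-19459808, minus strand: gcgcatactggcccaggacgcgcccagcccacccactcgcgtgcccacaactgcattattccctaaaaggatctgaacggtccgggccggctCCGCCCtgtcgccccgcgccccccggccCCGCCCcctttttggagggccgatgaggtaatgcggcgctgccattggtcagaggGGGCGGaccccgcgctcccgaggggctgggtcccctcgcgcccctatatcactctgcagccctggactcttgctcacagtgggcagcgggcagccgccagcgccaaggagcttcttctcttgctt
Plau, chr15:3511938-3512237, minus strand: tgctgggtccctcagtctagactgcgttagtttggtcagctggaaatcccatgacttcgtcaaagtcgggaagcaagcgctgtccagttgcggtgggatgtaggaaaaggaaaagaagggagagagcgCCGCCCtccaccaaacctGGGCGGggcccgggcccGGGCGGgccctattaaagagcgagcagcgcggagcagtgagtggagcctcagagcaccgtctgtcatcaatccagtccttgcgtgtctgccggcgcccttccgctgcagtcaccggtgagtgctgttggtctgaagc
Only the Mmp7 window of the 6 held an exact match to the AP-1 letters, as TGAGTCA beginning 80 bases before the start. Near matches were not counted, such as tgagtaa in the Timp1 window, which differs from TGAGTCA in 1 letter. The Mmp7 window also held 2 TATA boxes, beginning 140 and 43 bases before the start. It held no GC box and was 41% G and C. The Timp3 and Plau windows held 3 GC boxes each and the Timp1 window held 1, with 68.7%, 61.0% and 61.3% G and C. The windows of Mmp15 (65.0% G and C) and Timp2 (70.3%) held 1 GC box each. No marked match overlapped another. Of all 27457 promoter windows of that table, 7.33% held the AP-1 letters, 34.9% a GC box and 14.3% a TATA box. Among the 10323 windows that belong to genes tested here, the shares were 5.11%, 59.8% and 7.49%. These matches describe the letters only, and no binding of a factor was measured.

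Of the 24 libraries, 4 stood apart from the rest, namely CoCM animal 39, i.p. ABCB5+ animal 38 and i.v. ABCB5+ animals 36 and 37. On the main axis of variation over all genes, which held 56.3% of the variance, they lay between 80.8 and 97.4, while the other 20 animals lay between -53.0 and 11.5. No label gave them a batch of their own, and no control animal was among them. Fold changes are therefore given for all animals and again without these 4, and correlations over the other 20 animals alone, because the 4 formed a separate cluster. Total counts ranged from 9304601 to 14125442 per library, so that 3 counts were worth 0.322 CPM in the smallest library. CPM values were counts scaled to a common library total with the TMM factor of each library, and they serve to compare animals within a gene. Levels of different genes were compared in TPM (transcript abundance scaled to a common total), which also accounts for transcript length.

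Plau was the most abundant of the 9 transcripts and Mmp9 the least, and each inhibitor exceeded each metalloproteinase among them by median TPM. The median TPM over 24 animals was 629.9 for Plau, 209.1 for Timp3, 168.5 for Timp2 and 137.5 for Timp1. It was 62.3 for Mmp14, 40.2 for Mmp2, 29.2 for Mmp15, 12.6 for Mmp7 and 4.61 for Mmp9. Plau was the highest in 24 of 24 animals, and its range (451.1 to 1024.6 TPM) did not overlap that of Timp3 (135.5 to 340.7 TPM). All other neighbours in this order overlapped in range. Timp3 exceeded Timp2 in 18 of 24 animals, Timp2 exceeded Timp1 in 20, and Timp1 exceeded Mmp14 in 24. In animals 36, 38 and 39, however, Mmp15 (24.2, 37.4 and 29.2 TPM) exceeded Timp1 (23.7, 29.1 and 26.1 TPM). Mmp14 exceeded Mmp2 in 21 animals, Mmp2 exceeded Mmp15 in only 15, and Mmp15 exceeded Mmp7 in 20. Mmp9 was the lowest of the 9 genes in 20 animals and Mmp7 in the other 4, which were animals 36 to 39.

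**Figure D1:**
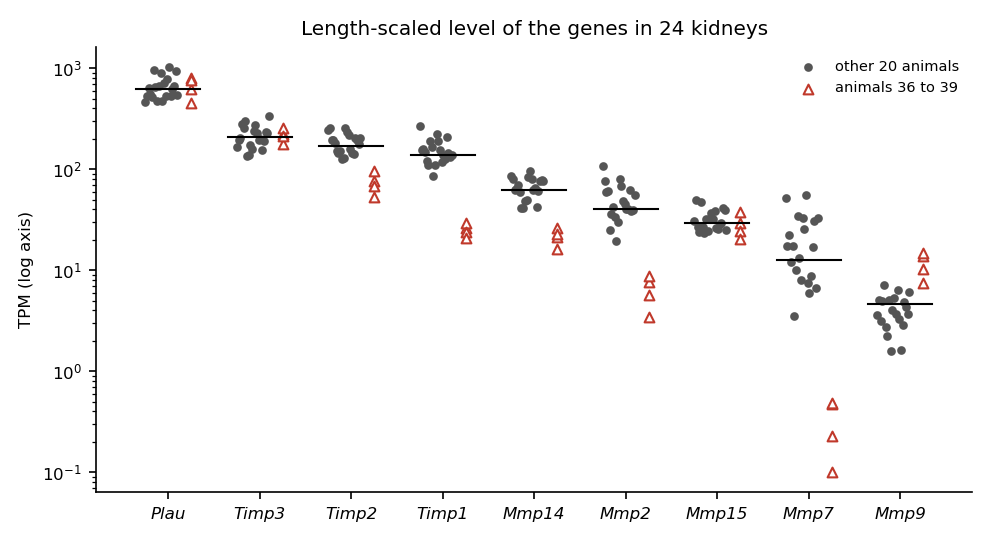
Level in TPM (log axis) of the 9 genes in 24 kidneys, ordered by the median over all animals, which the lines mark. Points are the 20 other animals and open triangles are animals 36 to 39, where Timp1, Timp2, Mmp14, Mmp2 and Mmp7 lie below all points and Mmp9 lies above. The Mmp7 value of 0 in 1 animal is drawn at 0.1.

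Mmp14, the membrane-bound activator, was the metalloproteinase with the highest median TPM. Its lowest, median and highest CPM were 99.7, 111.3 and 163.5 in Ctrl, 42.6, 82.2 and 150.1 in CoCM, 55.1, 113.8 and 145.9 in i.p. ABCB5+ and 36.9, 115.4 and 130.2 in i.v. ABCB5+. In CoCM, 5 of 6 animals were below every control, and the exception, animal 40, was at 150.1. The log2 fold change of CoCM against Ctrl was -0.47 ± 0.31 (SE, n = 6 each, edgeR adjusted p = 0.505, unadjusted exact permutation p = 0.0519). Without animals 36 to 39 it was -0.34 ± 0.18 (edgeR adjusted p = 0.316). The i.p. and i.v. groups overlapped the controls widely, with log2 fold changes of -0.17 ± 0.30 and -0.34 ± 0.30, which were -0.03 ± 0.17 and 0.02 ± 0.19 without the 4 animals. The 4 animals themselves had 42.6 (39), 55.1 (38), 44.9 (36) and 36.9 CPM (37), below the 72.3 to 163.5 CPM of the other 20.

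Mmp2, gelatinase A, cuts denatured collagen and basement membrane collagen and is mostly made by fibroblasts and other mesenchymal cells. Its lowest, median and highest CPM were 48.2, 134.1 and 260.7 in Ctrl, 8.76, 70.6 and 181.7 in CoCM, 15.1, 97.2 and 133.0 in i.p. ABCB5+ and 19.3, 78.8 and 140.8 in i.v. ABCB5+. Means were 134.6 ± 73.5 CPM in Ctrl and 79.7 ± 58.8, 89.4 ± 39.2 and 76.6 ± 48.5 CPM in the treated groups in the same order (SD, n = 6 each). Every i.p. animal was below the control median, as were 5 of 6 animals in CoCM and 5 of 6 in i.v. ABCB5+, yet all groups overlapped the controls. The log2 fold changes were -0.75 ± 0.57 for CoCM, -0.59 ± 0.57 for i.p. and -0.81 ± 0.57 for i.v. ABCB5+ (edgeR adjusted p = 0.555, 0.979 and 0.685). They were -0.52 ± 0.36, -0.36 ± 0.35 and -0.37 ± 0.38 without animals 36 to 39. Those 4 animals had 8.76 (39), 15.1 (38), 19.3 (36) and 24.7 CPM (37) against 45.4 to 260.7 CPM in the other 20. Mmp2 had a 29.7-fold span between its lowest animal, CoCM 39, and its highest, Ctrl 1. Without Ctrl 1 the log2 fold changes were -0.45, -0.29 and -0.51, the smallest differences among the fits with 1 animal left out. Without CoCM 40 the CoCM value was -1.18.

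Mmp15, like Mmp14 a membrane-type enzyme, varied least of the 9 genes, with a coefficient of variation of 19.9% over 24 animals. Its lowest, median and highest CPM were 66.3, 86.1 and 126.0 in Ctrl, 71.1, 90.6 and 105.6 in CoCM, 73.5, 83.9 and 126.2 in i.p. ABCB5+ and 67.9, 80.6 and 105.2 in i.v. ABCB5+. The groups lay on top of each other, with log2 fold changes against Ctrl of -0.08, -0.03 and -0.11 (SE 0.17 each), and -0.11, -0.14 and -0.04 without animals 36 to 39. Animals 36 to 39 had 77.6, 74.5, 126.2 and 94.0 CPM, so that animal 38 was level with the highest of the other 20 (126.0 CPM) and the rest of the 4 lay inside their range.

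Mmp7, matrilysin, is a small secreted enzyme that injured epithelium makes, and it varied most, with a coefficient of variation of 91.1%. Its lowest, median and highest CPM were 2.16, 9.69 and 35.9 in Ctrl, 0.341, 7.84 and 22.2 in CoCM, 0.363, 5.45 and 31.8 in i.p. ABCB5+ and 0.0, 7.46 and 20 in i.v. ABCB5+. In animals 36 to 39 it was close to undetected, with 0, 2, 3 and 3 counts, while the other 20 animals had 2.16 to 35.9 CPM. A count of 0 allows up to 3 counts at this depth. The log2 fold changes against Ctrl were -0.30 ± 0.93 for CoCM, -0.37 ± 0.93 for i.p. and -0.59 ± 0.93 for i.v. ABCB5+. Without the 4 animals they were -0.05 ± 0.64, -0.10 ± 0.64 and -0.01 ± 0.68, so that within the other animals a treatment difference was not detectable at this spread.

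Mmp9, gelatinase B, is stored by neutrophils and is also made by macrophages and by tubular cells. It was the only one of the 9 genes that was higher in each of animals 36 to 39 than in all others, with 36.2 (36), 20.8 (37), 36.1 (38) and 25.5 CPM (39) against 3.62 to 13.5 CPM. The lowest, median and highest CPM were 5.78, 9.14 and 13.5 in Ctrl, 3.62, 9.91 and 25.5 in CoCM, 3.67, 7.05 and 36.1 in i.p. ABCB5+ and 7.29, 11.8 and 36.2 in i.v. ABCB5+. The sign of its difference in CoCM and in i.p. ABCB5+ depended on the 4 animals. The log2 fold changes were 0.24 ± 0.51 for CoCM, 0.39 ± 0.51 for i.p. and 0.80 ± 0.51 for i.v. ABCB5+, and -0.19 ± 0.32, -0.31 ± 0.32 and 0.10 ± 0.33 without them. Neither set passed the test (smallest edgeR adjusted p = 0.677 with and 0.765 without the 4 animals). Between the cell groups, i.p. against i.v., the log2 difference was -0.41 ± 0.51 with all animals (edgeR adjusted p = 1.0) and -0.40 ± 0.35 without the 4 animals. With 1 animal left out it ranged from -1.10, without animal 38, to -0.01 (smallest edgeR adjusted p = 0.942).

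**Figure D2:**
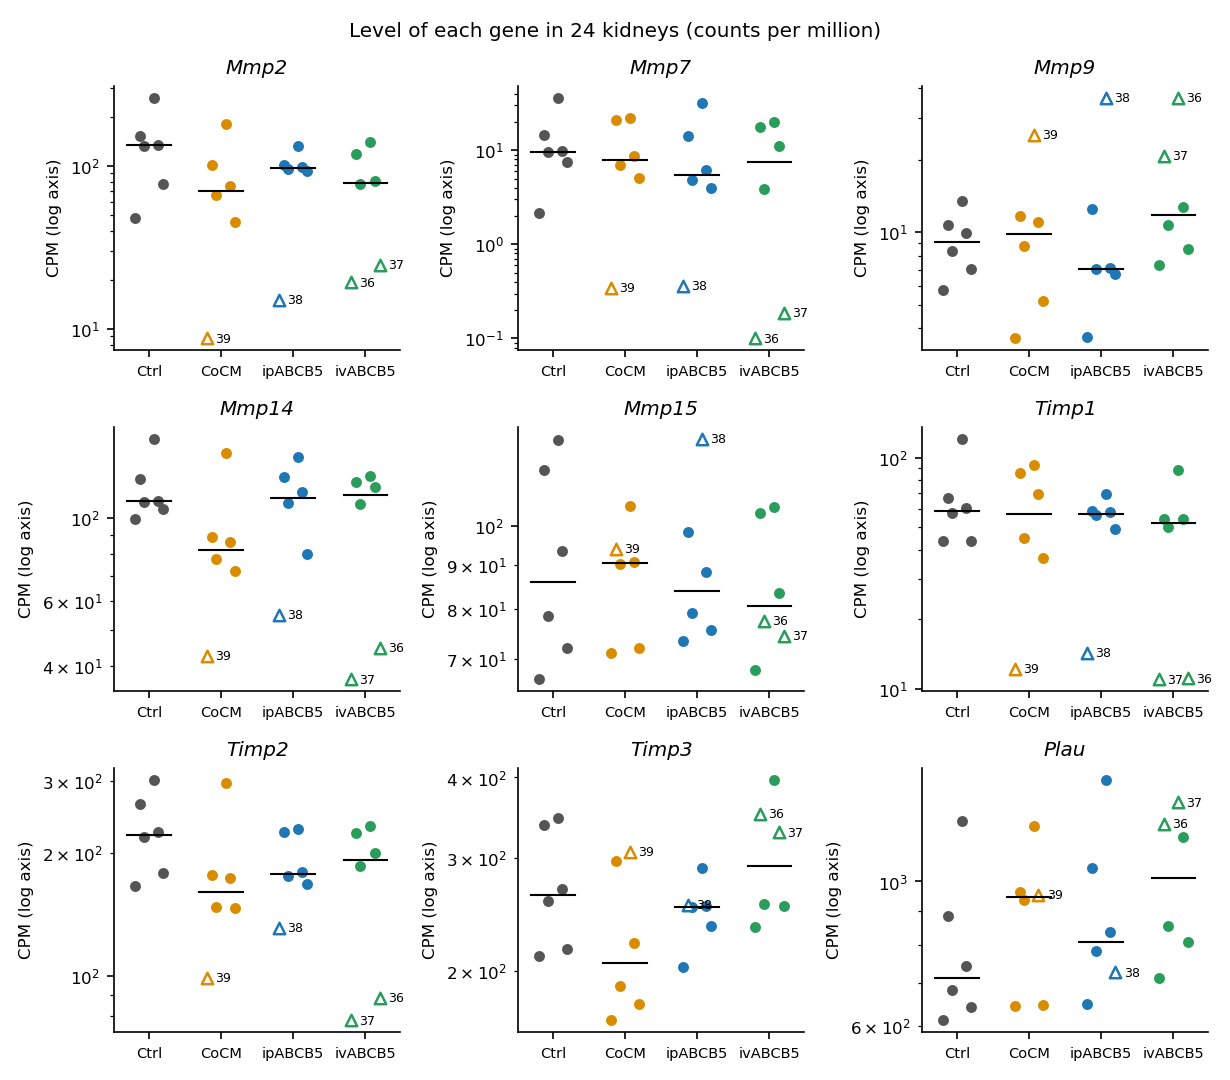
Level in CPM (log axes) of each of the 9 genes in the 6 animals of each group, where ipABCB5 and ivABCB5 are the groups given cells by i.p. and i.v. injection. Lines are group medians, filled points are 20 animals, and open triangles with numbers are animals 36 to 39, which sit lowest for Mmp2, Mmp7, Mmp14, Timp1 and Timp2 and highest for Mmp9. The Mmp7 value of 0 is drawn at 0.1.

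Timp1, the inhibitor that rises most readily in injured tissue, had a lowest, median and highest CPM of 43.7, 59.0 and 120.3 in Ctrl, 12.2, 57.3 and 93.2 in CoCM, 14.3, 57.2 and 69.5 in i.p. ABCB5+ and 11.0, 52.2 and 88.7 in i.v. ABCB5+. The group medians lay close together. The log2 fold changes were -0.19 ± 0.48, -0.36 ± 0.48 and -0.54 ± 0.48, and without animals 36 to 39 they were 0.01 ± 0.26, -0.16 ± 0.26 and -0.08 ± 0.28. The 4 animals had 11.1 (36), 11.0 (37), 14.3 (38) and 12.2 CPM (39), and the lowest of the other 20 was at 37 CPM.

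Timp2, which both inhibits Mmp2 and helps Mmp14 to activate it, had a lowest, median and highest CPM of 166.7, 222.3 and 302.3 in Ctrl, 99.2, 161.1 and 296.8 in CoCM, 131.4, 177.9 and 230.0 in i.p. ABCB5+ and 78.0, 193.0 and 233.8 in i.v. ABCB5+. In CoCM, 3 of 6 animals were below every control and animal 40 was near the top of the control range, as it was for Mmp14. The log2 fold changes were -0.38 ± 0.26, -0.29 ± 0.26 and -0.43 ± 0.26 (edgeR adjusted p = 0.529, 0.979 and 0.677). They were -0.27 ± 0.18, -0.20 ± 0.18 and -0.10 ± 0.19 without animals 36 to 39, which had 88.5, 78.0, 131.4 and 99.2 CPM against 146.7 to 302.3 CPM in the other 20.

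Timp3 is held in the matrix after secretion and also inhibits the sheddase Adam17. Its lowest, median and highest CPM were 211.3, 263.2 and 346.4 in Ctrl, 167.7, 205.6 and 306.9 in CoCM, 202.8, 252.0 and 289.1 in i.p. ABCB5+ and 234.3, 291.8 and 396.4 in i.v. ABCB5+. Of the 9 genes it had the smallest unadjusted p over the 4 groups (edgeR F-test, adjusted p = 0.821). In CoCM 3 of 6 animals were below every control, and the log2 fold change was -0.27 ± 0.17 (edgeR adjusted p = 0.496). The CoCM animal that stood apart, 39, had the highest Timp3 of its group, and without the 4 animals the value was -0.39 ± 0.17 (edgeR adjusted p = 0.271). All 6 i.p. animals were below the i.v. median, with a log2 difference of -0.29 ± 0.17 between the routes (edgeR adjusted p = 1.0, exact permutation p = 0.0844). Without the 4 animals this difference was -0.20 ± 0.19. Animals 36 to 39 had 351.2, 328.7, 253.8 and 306.9 CPM, inside the range of the others.

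Plau had a lowest, median and highest CPM of 612.4, 711.4 and 1239.2 in Ctrl, 643.3, 945.7 and 1218.0 in CoCM, 648.6, 808.8 and 1430.8 in i.p. ABCB5+ and 712.1, 1011.6 and 1322.3 in i.v. ABCB5+. Means were 800.0 ± 235.8 CPM in Ctrl and 893.7 ± 219.1, 911.8 ± 288.0 and 1015.4 ± 254.1 CPM in the treated groups (SD, n = 6 each). All 6 i.v. animals were above the control median, although the highest control, animal 24, was above 5 of them. The log2 fold changes were 0.16 ± 0.22, 0.19 ± 0.22 and 0.34 ± 0.22 (edgeR adjusted p = 0.734, 0.979 and 0.677, exact permutation p = 0.128 for i.v.). Without the 4 animals they were 0.13 ± 0.22, 0.25 ± 0.22 and 0.14 ± 0.24. Animals 36 to 39 had 1226.3, 1322.3, 725.3 and 954.9 CPM, inside the range of the others.

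Across the treatments, none of the 9 genes passed the edgeR test in any comparison. All 9 had enough counts to be tested, among 12778 genes. For CoCM against Ctrl, 0 of 9 members were called at an adjusted p under 0.05, where the share over all genes was 0.00783%, and 0 of 9 at an unadjusted p under 0.05, where it was 11.9%. For i.p. ABCB5+ the members' counts were 0 and 0 of 9, against 0.0% and 1.74% of all genes. For i.v. ABCB5+ they were 0 and 0 of 9, against 0.0% and 5.68%. Between i.p. and i.v. ABCB5+ they were 0 and 0 of 9, against 0.0% and 2.12%. For CoCM against the mean of both cell groups they were 0 and 0 of 9, against 0.0% and 6.94%. In the test over the 4 groups they were 0 and 0 of 9, against 0.0% and 4.63%. At an adjusted p the members' share was thus at or near the background in each comparison.

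Most fitted values of the members were negative in the treated groups. The median log2 fold change of the 9 members was -0.27 for CoCM, -0.17 for i.p. and -0.34 for i.v. ABCB5+, where the medians over all genes were 0.01, 0.0 and 0.01. It was negative in 7, 7 and 6 of 9 members, where 48.6%, 49.0% and 47.4% of all genes were negative. Without animals 36 to 39 the members' medians were -0.19, -0.14 and -0.01, with 7, 8 and 5 of 9 negative. These comparisons share the same 6 controls. Plau was the only member with a positive value in all 3 treatments both with and without animals 36 to 39. Between i.p. and i.v. ABCB5+ the members' median was 0.14, and between CoCM and the cell groups it was -0.05. The largest of the latter values were -0.35 ± 0.45 for Mmp9 and -0.27 ± 0.15 for Timp3 (edgeR adjusted p = 0.935 and 0.70), and without animals 36 to 39 they were -0.09 and -0.34.

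**Figure D3:**
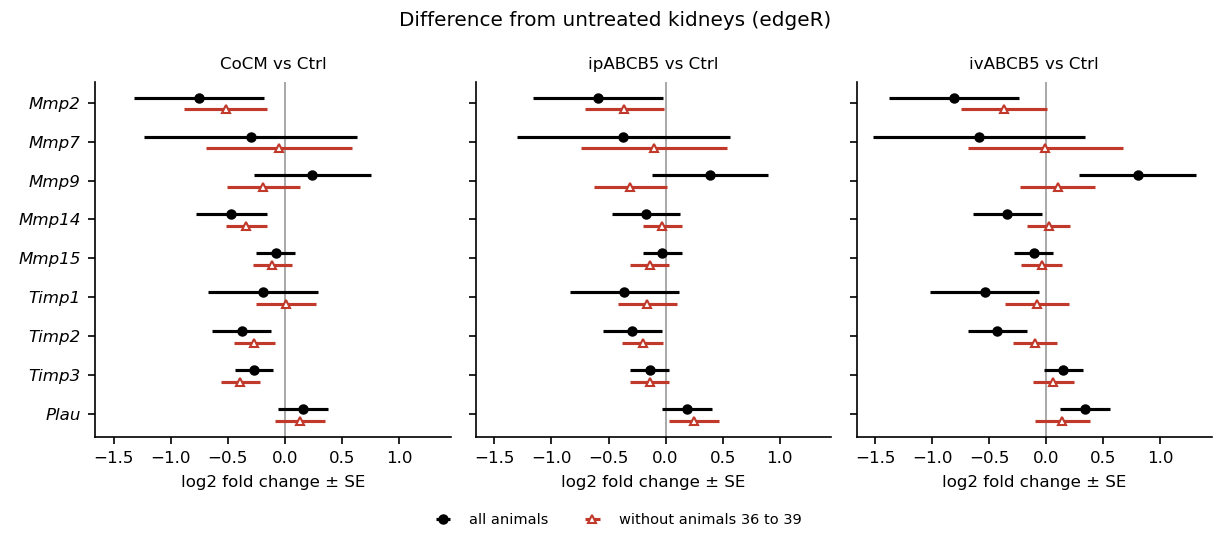
Log2 fold change against untreated kidneys, with its SE, for each of the 9 genes and each treatment, from edgeR (n = 6 animals per group). Filled points are the fit of all 24 animals and open triangles the fit without animals 36 to 39, in which Mmp9 changes sign for CoCM and ipABCB5 and Mmp2 moves towards 0 in all 3 panels.

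The values of animals 36 to 39 beside those of the other 20 are given as a description with no test, because the 4 were picked out by their own expression. Of the 9 genes, 5 were lower in each of the 4 animals than in all of the other 20 (Mmp2, Mmp7, Mmp14, Timp1 and Timp2), where 14.2% of the genes tested were. Mmp9 alone was higher in each of them, where 10% of the genes tested were. Mmp15, Timp3 and Plau overlapped the others. On the TPM scale, too, the same 5 genes were lower, Mmp9 was higher and the other 3 overlapped, although Mmp15 then reached down to 20.5 TPM (others 23.2 or more) and Plau to 451.1 TPM (others 466.6 or more). The low genes thus included enzymes and inhibitors alike.

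The inhibitor transcripts outweighed the metalloproteinase transcripts in each kidney. The summed TPM of Timp1, Timp2 and Timp3 divided by that of the 5 metalloproteinases was 2.42 to 4.37 in the 20 animals (median 3.23) and 3.6 to 5.38 in animals 36 to 39. Both sums were lower in those 4 animals, at 286.4 to 348.6 TPM against 386.5 to 722.1 for the inhibitors and 53.3 to 83.9 against 107.7 to 281.2 for the enzymes. By group the ratio had medians of 3.29 in Ctrl, 3.40 in CoCM, 3.34 for i.p. ABCB5+ and 3.46 for i.v. ABCB5+, with control animals from 2.42 to 4.37.

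The make-up of both sums differed more than their ratio. Timp3 held 58.2% to 74.0% of the inhibitor transcripts in animals 36 to 39 and 24.3% to 53.1% in the others. Timp1 held 6.79% to 9.64% against 19.6% to 40.5%. Among the enzymes, Mmp14 was a similar part in both, with 30.8% to 33% in the 4 animals and 28.1% to 46.8% in the others. Mmp15 held 35% to 45.1% against 10.9% to 28.4%, and Mmp9 held 14% to 21.2% against 1.17% to 4.30%. Mmp7 was at most 0.73% in the 4 animals, where the others had 2.76% to 24%. Among the member enzymes, Mmp2 and Mmp14 were usually the main ones in the 20 animals, while in the 4 animals Mmp15 and Mmp14 were.

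**Figure D4:**
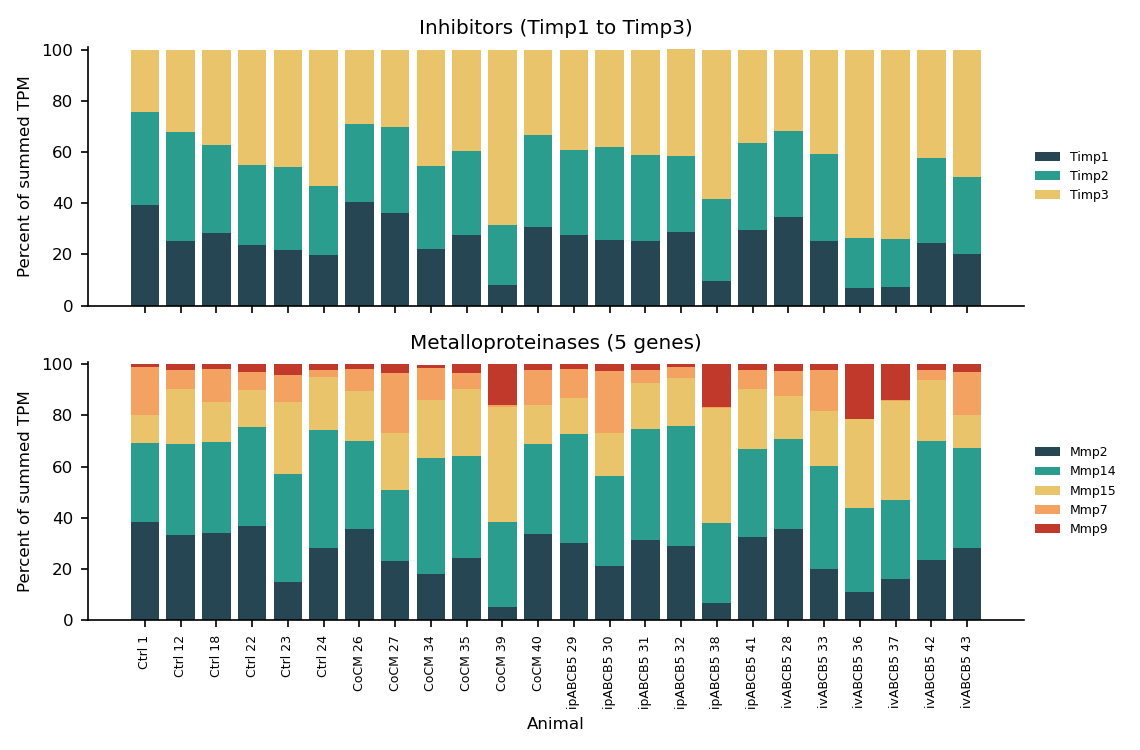
Percent of the summed TPM of the inhibitors (upper panel) and of the 5 metalloproteinases (lower panel) held by each gene in each of the 24 kidneys, named by group and animal number. In CoCM 39, ipABCB5 38, ivABCB5 36 and ivABCB5 37, Timp3 holds 58.2% or more of the inhibitors and Mmp15 35% or more of the enzymes.

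Cell type markers moved with the 4 animals, and in whole tissue fewer cells of a type and less RNA per cell cannot be told apart. The summed TPM of 8 fibroblast markers was 58.9 to 210.6 in them and 335.1 to 1380.7 in the others, and 7 of the 8 were lower in each. All 7 macrophage markers were lower (49.8 to 128.8 against 285.0 to 764.8 TPM in sum), as were all 5 T cell markers (10 to 26.7 against 92 to 239.0). For 7 markers of injured tubule the sums were 519.2 to 814.5 against 6741.7 to 14319.0, with 5 of 7 lower, while those of 6 proximal tubule markers were 2732.3 to 4052.1 against 626.6 to 2802.9, with 2 of 6 higher. The sums of podocyte, endothelial, collecting duct, thick ascending limb and distal convoluted tubule markers overlapped. The part of cell make-up in the members' values was not tested. For Mmp9, the sum of 6 neutrophil markers lay the other way, at 1.36 to 6.82 TPM in the 4 animals and 7.99 to 74.4 in the others. Of these markers, S100a9 was at 0.935 to 3.86 against 2.60 to 42.8 TPM, and 1 of the 6 was lower in each of the 4 animals. Elane was listed at 0 in 20 of the 24 animals, these 4 included.

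The same lists spread widely within each group of treatments. Fibroblast sums were 428.1 to 1380.7 TPM in Ctrl, 58.9 to 1113.7 in CoCM, 98 to 1088.3 in i.p. ABCB5+ and 177.1 to 1041.8 in i.v. ABCB5+. Macrophage sums were 361.8 to 764.8, 49.8 to 759.4, 95.9 to 604.3 and 109.0 to 619.8 TPM in the same order. The lowest value of each treated group came from animals 36 to 39.

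Within the other 20 animals the enzymes and inhibitors were correlated with each other over 10 pairs, of which Timp1 with Timp3 joins 2 inhibitors and the others hold at least 1 enzyme. Mmp2 and Timp2 rose and fell together, with Pearson's r = 0.881 and Spearman's rho = 0.877 on log2 CPM (n = 20, permutation p = 1e-05 each, the smallest that 100000 resamples can give, Benjamini-Hochberg adjusted over 10 pairs 5e-05 and 0.0001). Timp1 and Mmp2 had r = 0.822 and rho = 0.753 (permutation p = 1e-05 and 0.00017, adjusted 5e-05 and 0.000567). Mmp14 and Timp2 had r = 0.775 and rho = 0.777 (permutation p = 7e-05 and 0.00012, adjusted 0.000175 and 0.000567). All 3 held after group means were subtracted, with r = 0.880, 0.874 and 0.768, and without the 2 animals farthest from the median of the gene named first, with r = 0.822, 0.695 and 0.743. After the subtraction rho was 0.893, 0.821 and 0.615, so Mmp14 with Timp2 was weaker by rank. Each animal's values share a library, and each correlation also carries whatever else differed between kidneys.

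Mmp7 and Plau went in opposite directions. Their r was -0.787 and rho -0.735 (n = 20, permutation p = 5e-05 and 0.00029, adjusted 0.000167 and 0.000725), with -0.815 after group means were subtracted and -0.755 without the 2 animals farthest from the Mmp7 median. Control animal 24 had the lowest Mmp7 (2.16 CPM) and the highest Plau (1239.2 CPM) of its group, and i.p. animal 30 had the highest Mmp7 (31.8 CPM) and the lowest Plau (648.6 CPM) of its own. Animals 36 to 39, with almost no Mmp7, were not at the upper end of Plau throughout.

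Of the other pairs, Mmp2 and Mmp14 had r = 0.623 and rho = 0.614 (permutation p = 0.00303 and 0.00466, adjusted 0.00606 and 0.00932), and Mmp7 and Timp1 had r = 0.547 and rho = 0.544 (permutation p = 0.0117 and 0.0131, adjusted 0.0195 and 0.0218). Without the 2 animals farthest from the median r was 0.487 and 0.345 (n = 18, adjusted permutation p = 0.0788 and 0.23), so neither pair passed there. After group means were subtracted rho was 0.465 and 0.537 (adjusted permutation p = 0.0675 and 0.032), so Mmp2 with Mmp14 did not pass by rank. The pairs that did not pass were Mmp9 with Timp1 (r = 0.213, rho = 0.129), Mmp14 with Plau (r = -0.232, rho = -0.283), Mmp15 with Timp3 (r = -0.274, rho = -0.170) and Timp1 with Timp3 (r = -0.169, rho = -0.138). Their permutation p-values for r were 0.367, 0.321, 0.242 and 0.476 (adjusted 0.408, 0.401, 0.346 and 0.476), and those for rho were 0.584, 0.228, 0.474 and 0.559 (adjusted 0.584, 0.326, 0.584 and 0.584).

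**Figure D5:**
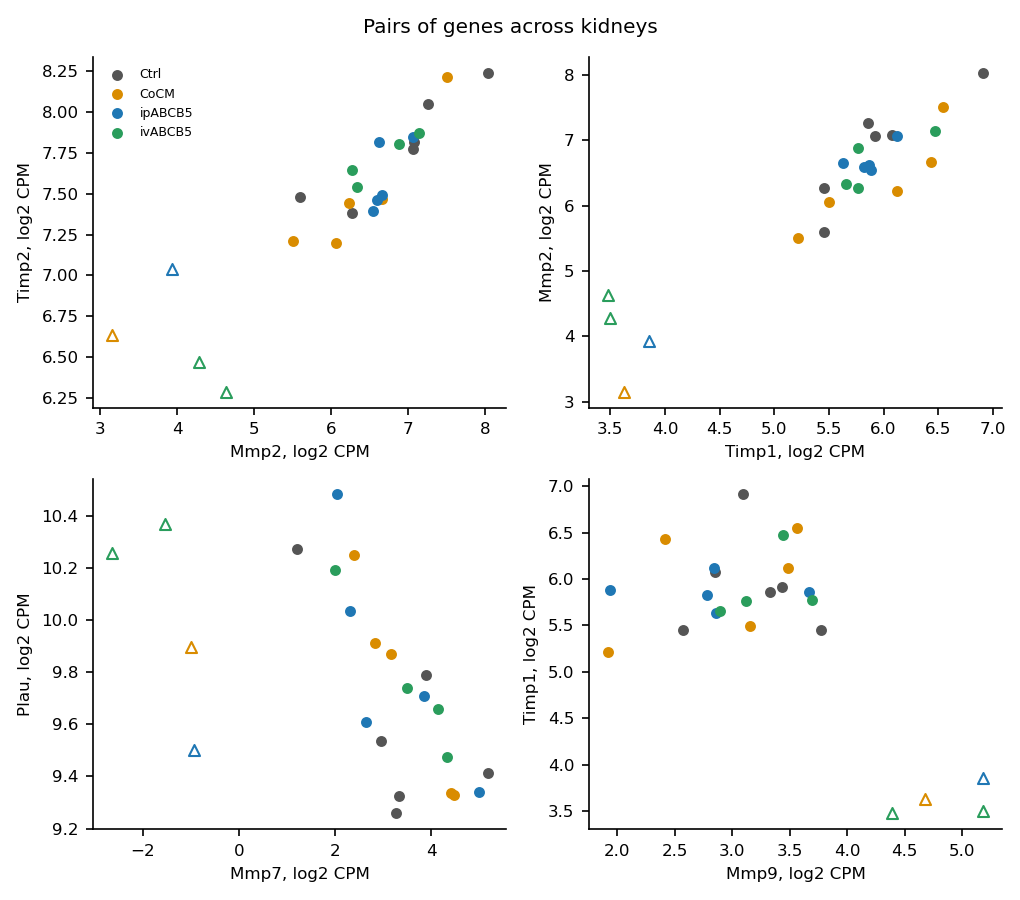
Log2 CPM of 4 pairs of genes in 24 kidneys, coloured by group, with open triangles for animals 36 to 39, which were not used for the correlations. Mmp2 rises with Timp2 (r = 0.881) and with Timp1 (r = 0.822), Mmp7 falls as Plau rises (r = -0.787), and Mmp9 shows no clear relation to Timp1 (r = 0.213).

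The genes most like each member over the 20 animals, by Pearson's r of log2 CPM, were named as a description. For Mmp2 they were Col3a1 (r = 0.972), the fibrillar collagen, Dkk3 (0.971) and the matrix glycoprotein gene Fbln1 (0.962). For Mmp7 they were the cytokine gene Il1b (0.880), Gpr183 (0.879) and the chemokine gene Cxcl1 (0.828). Mmp14 had Pard6g (0.913), the collagen gene Col5a1 (0.900) and Zfp365 (0.899). Timp1 had Smim3 (0.952), Kdelr3 (0.952) and Tmem176b (0.945). Timp2 had Zcchc24 (0.953), Tacc1 (0.949) and Cerk (0.947), and Timp3 had Dgkg (0.906) and Pakap (0.897). Plau had Pld1 (0.958), Irx1 (0.935), a transcription factor gene of the nephron, and Panx2 (0.928). The values for Mmp9 were lower, with Rapgef5 (0.798), Mreg (0.779) and Pianp (0.748), as were those for Mmp15, with Gabrp (0.829), Mboat1 (0.821) and Zbtb8a (0.807). Each set was the best of 12778 genes, so these values overstate the likeness, and Col3a1 is also among the fibroblast markers.

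The wider proteinase system was followed through 54 further genes in 5 lists, of which 50 were found and 41 had enough counts to be tested. None was called at an adjusted p under 0.05 in any treatment. At an unadjusted p under 0.05, 1 was higher and 6 were lower in CoCM, 1 was higher in i.p. and 1 was higher and 1 lower in i.v. ABCB5+, beside 11.9%, 1.74% and 5.68% of all genes in either direction. The median log2 fold changes of the 41 genes were -0.24, -0.22 and -0.17, and 30, 32 and 30 were negative, and without animals 36 to 39 the medians were -0.15, -0.11 and -0.03. Among 9 tested other metalloproteinases the medians were -0.22, -0.25 and -0.32, among 14 ADAM and ADAMTS proteinases -0.32, -0.21 and -0.18, and among 6 genes of the plasminogen system -0.05, -0.13 and -0.13. Among 5 further inhibitors and activators they were -0.10, 0.05 and 0.01, and among 7 meprins and cathepsins 0.08, -0.01 and -0.11.

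By name, 5 genes of these lists had the lowest p-values in a treatment. Adamts5, an aggrecan-cutting proteinase that Timp3 inhibits, was at 5.80 to 10.5 CPM in CoCM and 8.23 to 18.8 in Ctrl, with a log2 fold change of -0.87 ± 0.27 (edgeR adjusted p = 0.295) and -0.81 without animals 36 to 39. Reck, a membrane-anchored inhibitor of metalloproteinases, was at 16.8 to 37.7 against 24.3 to 44.6 CPM, with -0.52 ± 0.18 (edgeR adjusted p = 0.323) in CoCM and -0.33 ± 0.18 (edgeR adjusted p = 0.979) in i.p. ABCB5+, or -0.51 and -0.28 without animals 36 to 39. In i.p. ABCB5+ the leading value was that of Timp4, the inhibitor outside the 9 members, with 8.00 to 15.6 against 6.17 to 10.7 CPM and 0.44 ± 0.20 (edgeR adjusted p = 0.979), or 0.30 without animals 36 to 39. In i.v. ABCB5+ it was Serpinf2, the plasmin inhibitor, with 135.8 to 863.5 against 41.2 to 303.2 CPM and 1.51 ± 0.65 (edgeR adjusted p = 0.677), which became 0.21 without animals 36 to 39. Adam17 followed with -0.20 ± 0.10 (edgeR adjusted p = 0.677) and -0.08 without the 4 animals.

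The 4 animals were also low in many of these genes. Of the 41, 19 were below all of the other 20 animals and 0 were above, by CPM, where 14.2% and 10% of all genes tested were. Of the 9 other metalloproteinases 6 were among them (Mmp11, Mmp12, Mmp16, Mmp19, Mmp20 and Mmp28), and Mmp12, the macrophage elastase, was at 0.996 to 2.05 TPM against 10.8 to 37. Of 14 ADAM and ADAMTS genes 9 were lower, of which Adamts1 was the most abundant, at 11.9 to 17.7 against 48.6 to 159.3 TPM. Plaur, the receptor that binds urokinase, was at 3.91 to 6.65 TPM in the 4 animals and 8.64 to 18.3 in the others, while its ligand Plau overlapped, at 451.1 to 802.4 against 466.6 to 1024.6 TPM. A2m, a broad proteinase inhibitor, was at 0.0439 to 0.0742 against 1.26 to 8.47 TPM. No metalloproteinase of the wider list was higher in the 4 animals throughout, so Mmp9 had no companion there. Mmp24 came nearest, at 23.4 to 32 against 14.9 to 26.3 TPM. Mmp27 was listed at 0 in all 24 animals, and Mmp1 and Mmp10 in 20 each.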

How the data were processed

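Total RNA of the left kidney was sequenced on a BGISEQ-500 instrument. Per the submitters' processing notes, Trim Galore 0.6.4, kallisto 0.4.6 and the build rn6 were used. The study's methods name a human gene model package and DESeq2. For each animal the authors deposited estimated counts, not normalized (86.4% to 87.3% of values whole), and TPM values scaled by the authors to transcript length and library total (sums of 964191 to 976409), for 17334 Entrez identifiers. Symbols came from RefSeq GRCr8 (17179 identifiers matched), and no coordinate of the build behind the files was used.

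Groups came from the sample labels. Each library is a separate animal, and no library was a repeat of another (lowest chi-square/df within a group 10.3). Estimated counts were rounded. After filterByExpr, 12778 genes were scaled by TMM and fitted in edgeR 4.0.16 (R 4.3.3, robust quasi-likelihood, all 24 samples, common BCV 0.299), with Benjamini-Hochberg adjustment over all genes and a threshold of 0.05. Single genes were also compared by a two-sided exact permutation test of log2 CPM (prior count 2) over 924 splits. Its p-values were not adjusted, and only some are printed, the smallest among them. Correlations used two-sided permutation tests (scipy 1.17.1, 100000 resamples). Alternatives used DESeq2 1.42.0, limma 3.58.1 (log2(TPM + 1) and voom weights), other filters and scaling, only the groups compared, and animals left out. In simulated counts for CoCM against Ctrl (12778 genes, 200 changed 4-fold) edgeR called 91% of the changed genes and 6.67% of its calls were false, and DESeq2 called 93.5% with 15.4% false. The genes were drawn independently, without animals set apart and without smaller changes, so these shares do not carry over to the members. The floor of 3 counts covers counting error only.

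The members, the gene and marker lists and the tests were chosen with earlier results of these data known. Named genes were all members, the 2 tested genes of the wider lists with the smallest p in each treatment, and the 3 genes most like each member, of which 1 is not reported here. Reck was among those 2 in CoCM and in i.p. ABCB5+.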

Additional observations from a re-analysis of the deposited data

Results flagged for a closer look

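In 6 of 36 sets of 6 values (9 genes in 4 groups), 1 animal lay far from the others of its group, with a gap to its nearest neighbour, as a share of the whole range, beyond Dixon's critical value for 6 samples. About 1.8 of 36 such sets would be flagged if each held normally distributed values. CPM was not put on a log scale here, and the sets share animals across genes. The 6 flags were therefore not judged against that number. Animal 38 of the i.p. ABCB5+ group was apart in 3 genes. Its Mmp2 was at 15.1 CPM, where the other 5 had 92.8 to 133.0, its Timp1 at 14.3 CPM, where the others had 49.3 to 69.5, and its Mmp9 at 36.1 CPM, where the others had 3.67 to 12.5. The gap shares were 0.659, 0.635 and 0.727. CoCM animal 39 was apart in Mmp9, at 25.5 CPM where the others had 3.62 to 11.7 (gap share 0.632). In the i.v. group a pair of animals, 36 and 37, lay together at the end of the range, and this measure does not mark pairs.

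Control animal 1 was apart in the upper direction. Its Mmp7 was at 35.9 CPM, where the other controls had 2.16 to 14.6 (gap share 0.631), and its Timp1 was at 120.3 CPM, where they had 43.7 to 67.2 (gap share 0.693). The same animal had the highest Mmp2, Mmp14 and Timp2 of all 24 kidneys, at 260.7, 163.5 and 302.3 CPM.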

How the results depend on the processing

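No paired analysis was possible because no animal number occurred in more than 1 group. Under all alternatives, 1227 fits of a member in a comparison were made and 0 were called at an adjusted p under 0.05. The smallest adjusted p was 0.0934 (Timp3, CoCM, limma voom with quality weights, log2 fold change -0.46), and 21 fits had an unadjusted p under 0.05. In the comparisons that have a direction, 332 fits with another setting kept it and 23 did not, and 553 with 1 animal left out kept it and 41 did not. Precision was bounded by the spread between animals (common BCV 0.299), and for Mmp7 also by counts of 0 to 3 in animals 36 to 39. Mmp7 was not tested when at least 10 counts were asked of every sample, and the test over 4 groups has no fit of only the groups compared. The causes of the changes were not tested.

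Without animals 36 to 39 the direction changed for Mmp9 (CoCM -0.19, i.p. -0.31), Timp1 (CoCM 0.01) and Mmp14 (i.v. 0.02), and between i.p. and i.v. for Mmp7 (-0.09), Mmp14 (-0.05), Mmp15 (-0.11), Timp1 (-0.07), Timp2 (-0.10) and Plau (0.10). With limma voom weights it changed for Mmp9 (CoCM -0.23, i.p. -0.45), Mmp15 (CoCM 0.02, i.v. 0.16) and Timp3 (i.v. -0.03), and between i.p. and i.v. for Mmp7 (-0.60), Mmp14 (-0.06), Mmp15 (-0.24), Timp2 (-0.08) and Plau (0.15). With limma on log2(TPM + 1) it changed for Mmp9 in CoCM (-0.03). For CoCM against the cell groups, Mmp15 was at 0.00 without a low-count filter and at 0.00 with 10 counts in every sample.

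Over all genes, CoCM against Ctrl had 1 call in the main fit, 81 with DESeq2, 180 with voom weights, and 0 with only the groups compared, with limma on TPM and without animals 36 to 39. With 1 animal left out it had 0 to 27, the highest without Ctrl 23 and 0 without CoCM 26, 27 or 39 or Ctrl 12, 18, 22 or 24. DESeq2 gave 1 call for i.v. against Ctrl, 1 between the routes, 3 for CoCM against the cell groups and 10 over 4 groups, where edgeR gave 0. Voom weights gave 2 for CoCM against the cell groups and 1 over 4 groups, which had 0 to 1 with 1 animal left out. Without the 2 farthest animals, r was 0.487 for Mmp2 with Mmp14, 0.345 for Mmp7 with Timp1 and -0.004 for Mmp9 with Timp1.

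With 1 animal left out, log2 fold changes crossed 0 in CoCM for Mmp7 (-0.65 to 0.30), Mmp9 (-0.18 to 0.43), Mmp15 (-0.17 to 0.03) and Timp1 (-0.39 to 0.07), in i.p. ABCB5+ for Mmp7 (-1.15 to 0.23), Mmp9 (-0.31 to 0.55) and Mmp15 (-0.15 to 0.08), and in i.v. ABCB5+ for Mmp7 (-1.01 to 0.01) and Mmp15 (-0.20 to 0.00). Between i.p. and i.v. they did for Mmp7 (-0.56 to 0.64), Mmp15 (-0.03 to 0.15), Timp1 (-0.02 to 0.51) and Timp2 (-0.01 to 0.26). For CoCM against the cell groups they did for Mmp2 (-0.48 to 0.18), Mmp7 (-0.18 to 0.57), Mmp15 (-0.07 to 0.05) and Timp2 (-0.24 to 0.10).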
